A study of Mus musculus with 244 samples.

Results

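Reads of the follicle stimulating hormone (FSH) receptor and of 6 genes of steroid synthesis were followed cell by cell in growing mouse follicles. The 7 genes (Fshr, Hsd17b1, Hsd3b1, Cyp19a1, Star, Cyp11a1 and Cyp17a1) were chosen by name from 25122 named genes. The cells came from pooled ovaries of CD-1 mice, an outbred strain, on postnatal day 6, with no treatment or mutation in any group, and each was sequenced as a separate library by SMART-Seq2, a full-length method without molecular identifiers. The cells are somatic cells and oocytes, each labelled with the stage of its follicle as primordial, transitioning from primordial to primary, primary or secondary. Somatic cells numbered 40, 47, 56 and 42 at these stages, in that order, and oocytes 13, 19, 20 and 7 (59 in all). No animal or dissection is named for a cell, so all cells of a stage on a plate count as 1 sample, and differences are given with their counting error and without a test.

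FSH acts on granulosa cells, the somatic cells that surround the oocyte, through a receptor that raises cyclic AMP. Steroid synthesis begins when STAR brings cholesterol into mitochondria, where CYP11A1 makes pregnenolone. HSD3B1 turns pregnenolone into progesterone, CYP17A1 of theca cells makes androgens, and CYP19A1 (aromatase) and HSD17B1 of granulosa cells turn androgens into estradiol. Theca cells, which supply the androgens, join the follicle as it grows.

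In GENCODE M21 on GRCm38, Fshr lies on chromosome 17 (88984952 to 89200675, minus strand, 10 blocks of exons) and Hsd17b1 on chromosome 11 (101078411 to 101080527, plus strand, 6 blocks). Hsd3b1 lies on chromosome 3 (98852194 to 98859794, minus strand, 5 blocks) and Cyp19a1 on chromosome 9 (54165937 to 54268110, minus strand, 11 blocks). Cyp11a1 is on the same chromosome (58006411 to 58027023, plus strand, 10 blocks), and a long noncoding gene on its strand, Gm17322, overlaps it. Star lies on chromosome 8 (25806555 to 25815982, plus strand, 8 blocks) and Cyp17a1 on chromosome 19 (46667165 to 46673172, minus strand, 7 blocks). RefSeq promoters on GRCm38.p6 were matched for 4 of the 7 genes (Fshr, Hsd3b1, Cyp19a1 and Cyp11a1). The 250 bases before the start of Fshr and Hsd3b1 are shown because reads of these genes differed between stages, 5′ to 3′ on the strand of the gene, at chr17:89200676-89200925 and chr3:98859795-98860044.
Fshr: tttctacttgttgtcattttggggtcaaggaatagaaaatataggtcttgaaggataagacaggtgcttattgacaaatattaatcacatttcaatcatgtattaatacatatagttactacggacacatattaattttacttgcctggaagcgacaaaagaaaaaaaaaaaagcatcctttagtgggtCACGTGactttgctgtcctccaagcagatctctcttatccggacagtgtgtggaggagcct
Hsd3b1: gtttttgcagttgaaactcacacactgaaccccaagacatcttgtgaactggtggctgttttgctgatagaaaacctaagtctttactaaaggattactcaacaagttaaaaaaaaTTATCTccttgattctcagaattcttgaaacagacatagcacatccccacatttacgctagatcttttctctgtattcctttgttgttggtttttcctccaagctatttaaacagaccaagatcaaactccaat
The capitals in the Fshr sequence mark an E-box, CACGTG, 61 bases before the start. Those in the Hsd3b1 sequence mark a GATA motif, AGATAA, read on the opposite strand. The E-box of the Fshr promoter is known in rats as a site of upstream stimulatory factors. Of 32851 promoters of this length, 6.02% held CACGTG, 9.99% held AGATAA and 4.08% held AAGGTCA, the motif of NR5A receptors, on either strand. Cyp19a1 and Cyp11a1 each had promoters at separate starts, all of which were searched. AAGGTCA was in no promoter of the 4 genes, and neither CACGTG nor AGATAA was in those of Cyp19a1 and Cyp11a1.

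The deposited metadata give each cell 1 of 6 plate numbers, and the genes with values differ from plate to plate. They also give a batch: batch 1 holds plates 1 to 3, batch 2 plate 4 and batch 3 plates 5 and 6. Which step of the work a plate number or a batch stands for is not stated. Fshr, Hsd17b1, Cyp11a1 and Cyp17a1 are listed on all 6 plates, Star on plates 1 to 5, Hsd3b1 on plates 2, 5 and 6 and Cyp19a1 on plates 1, 2 and 4, and values were compared only within a plate. Levels are counts per 1000000 (CPM) of the counts summed over a group, with exact Poisson intervals at 95%, and shares of cells with at least 1 read carry exact Clopper-Pearson intervals at 95%. Where a group had no read, the limit given is the share that 3 cells or the level that 3 counts over the group would have. All of these cover counting error only, since copies made by PCR are counted as separate reads. Plate 1 holds somatic cells of all 4 stages (19, 8, 5 and 5 cells) and plate 5 those of 3 stages (21 primordial, 19 primary and 26 secondary). Total counts per cell ran from 5150.2 to 409310 in somatic cells and from 5440.2 to 801258 in oocytes. Somatic cells carried the granulosa markers in every group, with summed levels on plate 5 of 4504 CPM (primordial), 22058 CPM (primary) and 19070 CPM (secondary). Stroma markers (7 of 7 listed, all with reads at each stage) summed there to 5040, 2734 and 1747 CPM in the same order. Reads of at least 3 stroma markers were found in 8 of the 21 primordial, 3 of the 19 primary and 4 of the 26 secondary cells. The deposited cell metadata gave another stage than the label for 2 somatic cells, both on plate 1. One is labelled primary and given as secondary, the other is labelled transitioning and given as primary, and the labels were followed.

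Fshr, the receptor, had reads in 45 somatic cells (24.3%, 1226 reads). On plate 5 no read was found in 21 primordial cells, which allows a share of up to 14.3%, against 5 of 19 primary cells (26.3%, 9.15% to 51.2%) and 10 of 26 secondary cells (38.5%, 20.2% to 59.4%). The pooled level was 0 in primordial cells, with a limit of 2.34 CPM, 164.2 CPM (137.01 to 195.3) in primary cells and 215.2 CPM (189.9 to 242.8) in secondary cells. The 5 primary cells with reads held 1581, 632, 458, 175.5 and 99.3 CPM. In the 10 secondary cells with reads the lowest, median and highest values were 65.4, 384 and 1801 CPM. Cells with reads of both growing stages thus spread over more than a 10-fold range beside cells with none (the plot of single cells by stage). Against primordial cells, Fshr was at least 70.2-fold higher in primary cells and at least 91.98-fold higher in secondary cells, with the primordial level set at that limit of 3 counts. Between secondary and primary cells the log2 ratio was 0.39 (0.08 to 0.71). Median totals were 57288 counts per primordial, 37971 per primary and 41034 per secondary cell, so the stage without reads was the most deeply sequenced. With every cell thinned to 12000 counts, reads were left in 0 of 21 primordial, 5 of 19 primary and 10 of 25 secondary cells.

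Plate 1 gave a like order of shares with fewer cells. Fshr had no read in 19 primordial cells (up to 15.8%) and none in 8 transitioning cells (up to 37.5%). Of 5 primary cells, 2 had reads, at 220.99 and 207.7 CPM, and of 5 secondary cells, 3 had reads, at 314, 128.1 and 25.7 CPM. Primary cells with a pooled level of 126.02 CPM (107.7 to 146.5) and secondary cells with 97.6 CPM (82.1 to 115.2) were at least 64.1-fold and at least 49.6-fold above the floor of primordial cells. A single secondary cell carried 85.7% of the counts of its group, and without it the bound on the log2 ratio of secondary to primordial cells moved to 3.27 from 5.63. Median totals on this plate were 63071, 81408, 361900 and 311480 counts along the stages, so cells of both later stages were also the more deeply sequenced. Thinned to 12000 counts, the shares were 0 of 19, 0 of 8, 2 of 5 and 2 of 5 cells.

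The other plates hold 1 main stage each. Fshr had reads in 6 of 22 transitioning cells of plate 3 (42.7 CPM, cells with reads at 6.37 to 388 CPM) and in 5 of 16 of plate 4 (51.6 CPM, 45.3 to 382 CPM). It had reads in 8 of 32 primary cells of plate 2 (44.1 CPM, 6.38 to 677 CPM) and in 6 of 11 secondary cells of plate 6 (198.9 CPM, 21.7 to 1469 CPM, 57.3% of the counts from 1 cell). Transitioning cells without a read on plate 1 and with reads on plates 3 and 4 were not set against each other, since the plates differ in the genes listed.

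**Figure D1:**
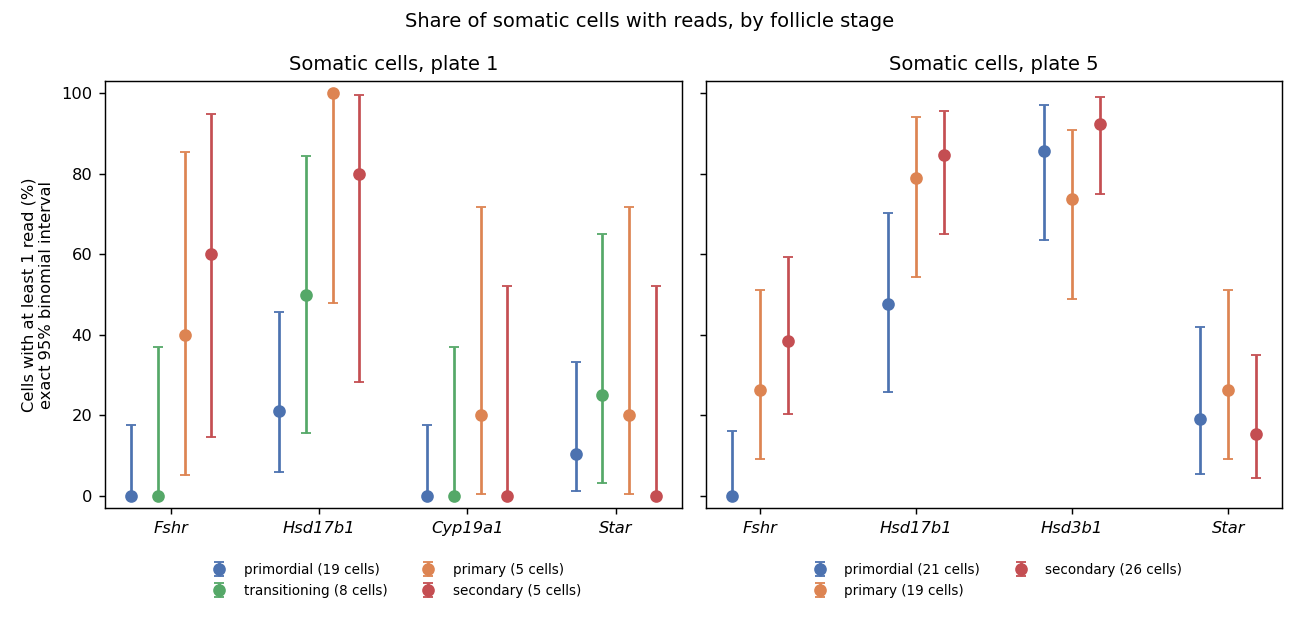
Share of somatic cells with at least 1 read of each gene (vertical axis, percent) by follicle stage on plate 1 (left) and plate 5 (right), with exact 95% binomial intervals. Fshr is at 0 in the 19 and 21 primordial cells of these plates and reaches 60% and 38.5% in their secondary cells, and the intervals of single stages are wide.

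Hsd17b1, which reduces estrone to estradiol, had reads in 67.6% of the somatic cells and at every stage. On plate 5 it had reads in 10 of 21 primordial cells (47.6%, 25.7% to 70.2%), 15 of 19 primary cells (78.9%, 54.4% to 93.9%) and 22 of 26 secondary cells (84.6%, 65.1% to 95.6%). The pooled levels were 142.7 CPM (122.8 to 164.9), 913 CPM (848 to 983) and 978 CPM (923 to 1035) in that order. The cells with reads had lowest, median and highest values of 5.93, 307 and 1150 CPM in primordial, 82.1, 632 and 3591 CPM in primary and 114.003, 955 and 3315 CPM in secondary follicles. Single cells of the stages overlapped, while the median of the cells with reads was higher at both growing stages. The log2 ratio was 2.68 (2.44 to 2.92) for primary over primordial cells, 2.78 (2.55 to 3.01) for secondary over primordial cells and 0.10 (-0.04 to 0.23) for secondary over primary cells.

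On plate 1 the pooled level of Hsd17b1 was 62.2 CPM (50.4 to 76.1) in primordial, 511 CPM (469 to 556) in transitioning, 1008 CPM (955 to 1063) in primary and 756 CPM (712 to 803) in secondary cells. Of the 19 primordial cells 4 had reads, at 1152, 388, 130.7 and 9.99 CPM, and of the 8 transitioning cells 4 had reads, at 2267, 679, 547 and 257 CPM. All 5 primary cells had reads, at 1777, 1426, 955, 457 and 252 CPM, and the secondary cells stood at 1314, 1175, 476, 147.3 and 0 CPM. The log2 ratio to primordial cells was 3.04 (2.72 to 3.37) in transitioning, 4.02 (3.72 to 4.33) in primary and 3.60 (3.30 to 3.92) in secondary cells. The highest primary cell is the one given as secondary in the metadata, and the ratio of primary to primordial cells was 3.54 without it. A single primordial cell held 68.4% of the counts of its group, and with the top cell of each group left out the ratio was 5.15. On the plates with 1 main stage, reads were in 18 of 32 primary cells of plate 2 (337 CPM), 16 of 22 and 15 of 16 transitioning cells of plates 3 and 4 (280 and 697 CPM) and all 11 secondary cells of plate 6 (992 CPM).

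Hsd3b1, 3-beta-hydroxysteroid dehydrogenase, is listed for stages side by side only on plate 5. Reads were in 18 of 21 primordial (85.7%, 63.7% to 96.95%), 14 of 19 primary (73.7%, 48.8% to 90.9%) and 24 of 26 secondary cells (92.3%, 74.9% to 99.1%). The share of cells with reads thus did not follow the level. The pooled level was 679 CPM (634 to 725) in primordial, 7286 CPM (7098 to 7478) in primary and 8033 CPM (7875 to 8194) in secondary cells. Cells with reads had lowest, median and highest values of 16.6, 508 and 8360 CPM in primordial, 920, 6105 and 24972 CPM in primary and 1626, 6641 and 21150 CPM in secondary follicles. The lowest secondary cell with reads lay above the median primordial cell with reads. The log2 ratio was 3.42 (3.32 to 3.53) for primary over primordial, 3.56 (3.46 to 3.67) for secondary over primordial and 0.14 (0.09 to 0.19) for secondary over primary cells. Reads were also in 30 of 32 primary cells of plate 2 (7650 CPM) and in all 11 secondary cells of plate 6 (17421 CPM, 4573 to 32172 CPM per cell). Hsd3b1 has close relatives, and part of its counts are not whole numbers. It shared 1.08% of its 1851 windows of 50 bases with Hsd3b2, 1.03% with Hsd3b3 and 2.05% with Hsd3b6, so its reads could be split among them to a small extent.

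Cells with reads of at least 3 stroma markers were also set apart from the other cells of their stage. Among primary cells of plate 5, Hsd3b1 had reads in 0 of the 3 such cells, against 14 of the other 16 (7886 CPM), and Hsd17b1 in 0 of 3, against 15 of 16 (989 CPM). Among primordial cells, Hsd3b1 stood at 296 CPM in the 8 such cells, against 970 CPM in the other 13, and Star at 70.4 CPM, against 53.6 CPM. Among secondary cells, the 4 such cells held 200.5 CPM of Fshr (1 cell with reads), against 217.3 CPM in the other 22, 278 CPM of Hsd17b1, against 1079 CPM, and 4184 CPM of Hsd3b1, against 8591 CPM. Star stood there at 245.8 CPM (1 cell with reads), against 70.2 CPM. It thus stood above the other cells among primordial and secondary cells, on 2 and 1 cells with reads. Among primary cells it stood below them (50.6 CPM in 1 of 3 cells, against 173.6 CPM). Star had reads in 0 of 2 such primordial cells of plate 1, 0 of 5 primary cells of plate 2 and 0 of 1 transitioning cell of plate 3. Hsd17b1 and Hsd3b1 stood below the other cells at each stage of plate 5. On plate 2, Fshr had reads in 0 of 5 such cells, against 8 of 27, and Hsd3b1 stood at 85.6 CPM, against 9243 CPM. Without these cells, a choice made after the data were seen, the log2 ratios of primary to primordial cells on plate 5 were at least 5.43 for Fshr, 2.36 for Hsd17b1 and 3.02 for Hsd3b1. Those of secondary to primordial cells were at least 5.72, 2.49 and 3.15 for the same genes.

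**Figure D2:**
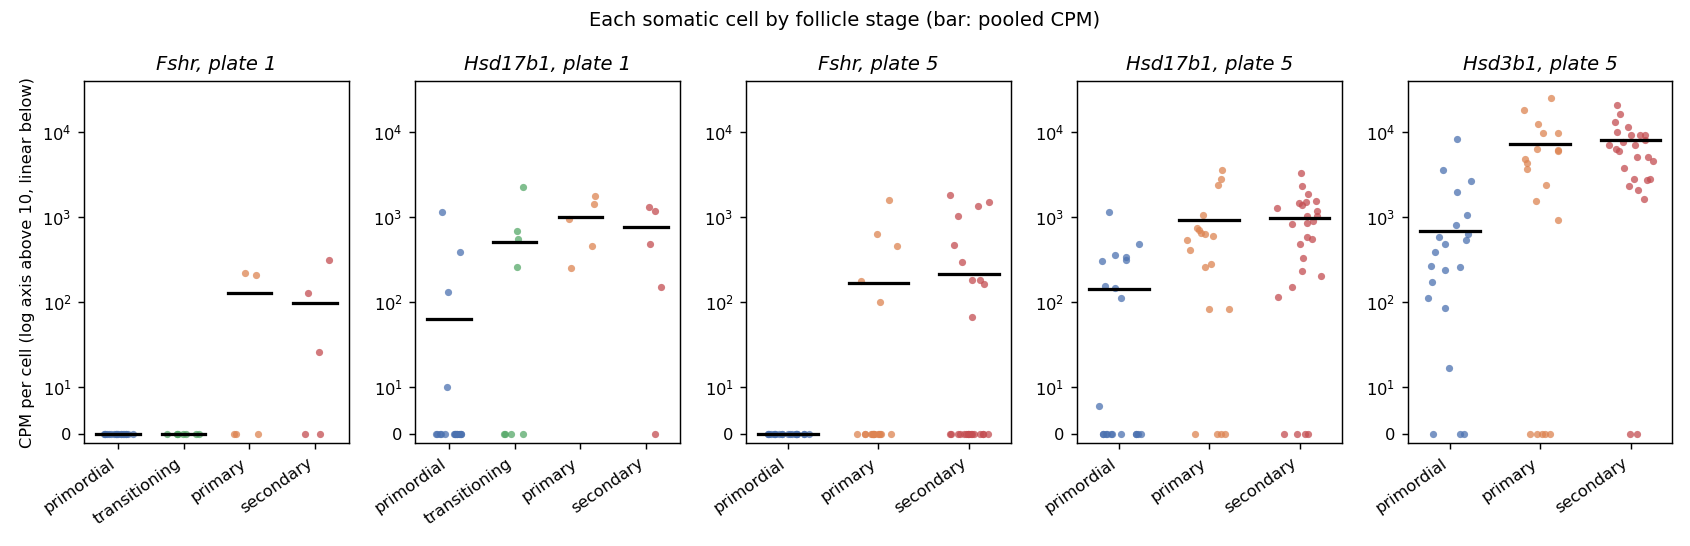
Level of Fshr, Hsd17b1 and Hsd3b1 in each somatic cell (vertical axis, CPM, logarithmic above 10 and linear below) by follicle stage on plates 1 and 5, with a bar at the pooled level. On plate 5 the pooled level of Hsd17b1 is 142.7 CPM (primordial), 913 CPM (primary) and 978 CPM (secondary), and single cells of the stages overlap.

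Cyp19a1, aromatase, had reads in 15 of the 85 somatic cells of the plates that list it. On plate 2, 9 of 32 primary cells had reads (28.1%, 13.7% to 46.7%, 124.6 CPM), with lowest, median and highest values of 56.0, 275 and 1189 CPM. On plate 4, 5 of 16 transitioning cells had reads, at 377, 152.6, 132.04, 34.7 and 11.1 CPM (pooled 55.2 CPM, 47.2 to 64.1). On plate 1 all reads came from 1 primary cell (276 CPM), which also held 85 of the Fshr reads, while 19 primordial, 8 transitioning and 5 secondary cells had none. Reads of aromatase were thus found in transitioning and primary follicles, and the comparison of stages on plate 1 rests on a single cell.

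Star, the carrier of cholesterol into mitochondria, had reads in 30 somatic cells, 17.3% of those on the plates that list it. On plate 5 these were 4 of 21 primordial cells (615, 404, 242.9 and 11.9 CPM), 5 of 19 primary cells (1665, 1352, 596, 173.6 and 105.3 CPM) and 4 of 26 secondary cells (1308, 1242, 137.9 and 121.6 CPM). The pooled levels were 60.8 CPM (48.1 to 75.9), 164.2 CPM (137.01 to 195.3) and 92.4 CPM (76.2 to 111.1). The log2 ratio to primordial cells was 1.43 (1.02 to 1.86) in primary and 0.60 (0.18 to 1.04) in secondary cells, and with TMM factors 0.94 for primary cells. On plate 1 the counts came mostly from 1 cell a stage: 1216 CPM in a primordial, 1260 CPM in a transitioning and 132.6 CPM in a primary cell, with 0 of 5 secondary cells. That primary cell is the one given as secondary in the metadata. Star had reads in 5 of 32 primary cells of plate 2 (52.7 CPM), in 2 of 22 transitioning cells of plate 3 (11.4 CPM) and in 5 of 16 of plate 4 (37.7 CPM). The level of Star thus had no order along the stages that held on both plates.

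Cyp11a1 and Cyp17a1, the P450 enzymes of pregnenolone and androgen synthesis, were nearly without reads. Cyp11a1 had 1 read in 1 somatic cell (0.541%), a primary cell of plate 5, and 1 read in 1 of 59 oocytes. Cyp17a1 had 32 reads in 1 primary cell of plate 2 (1014 CPM), 2 reads in 1 secondary cell of plate 6 and none in oocytes. Of the other theca markers, Insl3 was at 0 in somatic cells of plates 2, 4, 5 and 6, with 7 reads in 1 primordial cell of plate 1 and 3.89 counts in 1 transitioning cell of plate 3. Lhcgr, the receptor for luteinizing hormone, had 90 reads in 1 of 19 primordial cells (58.97 CPM) and 20 reads in 1 of 8 transitioning cells (18.6 CPM) of plate 1. It had 7, 2 and 2 reads in 1 somatic cell each of plates 3, 5 and 6 and none in those of plates 2 and 4. The theca markers also hold Ptch1, with reads in 27 of 32 primary cells of plate 2 (287.8 CPM), and Prlr, in 8 of 32 (141.3 CPM). Fdx1 had reads in 29 of 66 somatic cells of plate 5 (50.5 CPM) and 9 of 10 oocytes (95.4 CPM). Gli1 had 3 reads in 1 of 16 transitioning cells of plate 4. The theca markers were thus not all near 0.

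The stages differed in many genes, so the share of all genes past the same limit stands beside the count of members. A gene counted as higher or lower where its pooled level differed at least 2-fold and reached 5 CPM in 1 of the groups. For primary over primordial cells of plate 5, Fshr, Hsd17b1, Hsd3b1 and Star counted as higher, 4 of the 4 members with such a level, while 34.1% of all 6148 genes did and 27.9% were lower. For secondary over primordial cells 3 of 4 were higher (Fshr, Hsd17b1 and Hsd3b1), beside 35.6% of all genes, and for secondary over primary cells none of 4 was higher or lower, beside 29.7% higher and 21.5% lower. On plate 1 Hsd17b1 was the 1 of 2 members higher in transitioning than in primordial cells (28.2% of all genes). Primary cells were higher than primordial cells in 3 of 4 members (32% of all genes), of which Cyp19a1 rests on 1 cell. Secondary cells were higher than primordial cells in 2 of 3 members (33.2% of all genes), Fshr and Hsd17b1, and lower in Star (42% lower). Over transitioning cells, primary cells were higher in 2 of 4 members (42.2% of all genes), Fshr and Cyp19a1. Secondary cells were there higher in Fshr alone of 3 (43.3%) and lower in Star (33.8%). Secondary cells were lower than primary cells in Cyp19a1 and Star, 2 of 4 members (30.2% of all genes), and no member was higher (31.4%). In oocytes of plate 1 no member reached 5 CPM in primary or primordial cells, against 15.2% of all genes higher and 34.1% lower.

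Oocytes, which should lack the granulosa genes, gave the background. The authors kept cells by a score of somatic genes that includes Fshr, Cyp19a1 and Star, so low values of these 3 in oocytes were partly chosen. On plate 5, 15 of 66 somatic cells and 0 of 10 oocytes (up to 30%) had reads of Fshr, at median totals of 43279 and 63971 counts. On plate 4 these were 5 of 16 somatic cells and 0 of 15 oocytes, at 181855 and 229341 counts, on plate 1 5 of 37 and 1 of 13, at 93641 and 118876 counts, and on plate 6 6 of 12 and 2 of 13, at 39964 and 65405 counts. On plate 2 the share was 8 of 32 somatic cells and 5 of 8 oocytes, at median totals of 100363 and 504558 counts. The pooled level there was 44.1 CPM in somatic cells and 5.43 CPM (3.27 to 8.48) in oocytes, and after thinning to 12000 counts 6 of 31 somatic cells and 1 of 8 oocytes had reads. The share of cells with a read on plate 2 thus went against the level, and at least 10 reads were found in 4 of 32 somatic cells and 0 of 8 oocytes.

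Hsd17b1 was nearly without reads in oocytes, with 2 reads in the 59 cells together. Its log2 ratio of somatic cells to oocytes was at least 9.36 on plate 1, 10.21 on plate 2, at least 9.57 on plate 4, 8.76 on plate 5 and at least 8.07 on plate 6. For Fshr the ratio was 7.63, 3.02, at least 5.82, at least 4.76 and 5.74 on the same plates. For Hsd3b1 it was 8.90, 9.73 and 12.89 on plates 2, 5 and 6, with 62.04 counts in 11 of 31 oocytes, of which 42.98 came from 1 primordial oocyte of plate 2. For Cyp19a1 it was 5.18, 5.07 and 4.69 on plates 1, 2 and 4, and for Star 4.67, 3.20, 5.95 and at least 4.46 on plates 1, 2, 4 and 5. On plate 2, reads of Cyp19a1 were in 4 of 8 oocytes and 9 of 32 somatic cells. Those of Star were in 4 of 8 and 5 of 32. On plate 1 the shares were 1 of 13 and 1 of 37 for Cyp19a1, and 3 of 13 and 5 of 37 for Star. These shares ran against the levels, while on plate 4 both genes had 2 of 15 and 5 of 16. On plate 5, Star had 0 of 10 and 13 of 66. All members with a level of 5 CPM counted as higher in somatic cells: 4 of 4 on plate 1 (43.2% of all genes), 6 of 6 on plate 2 (60.9%), 4 of 4 on plate 4 (54.2%), 4 of 4 on plate 5 (47.8%) and 3 of 3 on plate 6 (52.2%). With TMM factors the ratio of Fshr on plate 2 was 1.83. Oocytes on plates 1, 2 and 4 mostly carry another plate code than the somatic cells in the metadata (3 of 13, 1 of 8 and 5 of 15 share it), so handling and cell type cannot be told apart in full there.

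**Figure D3:**
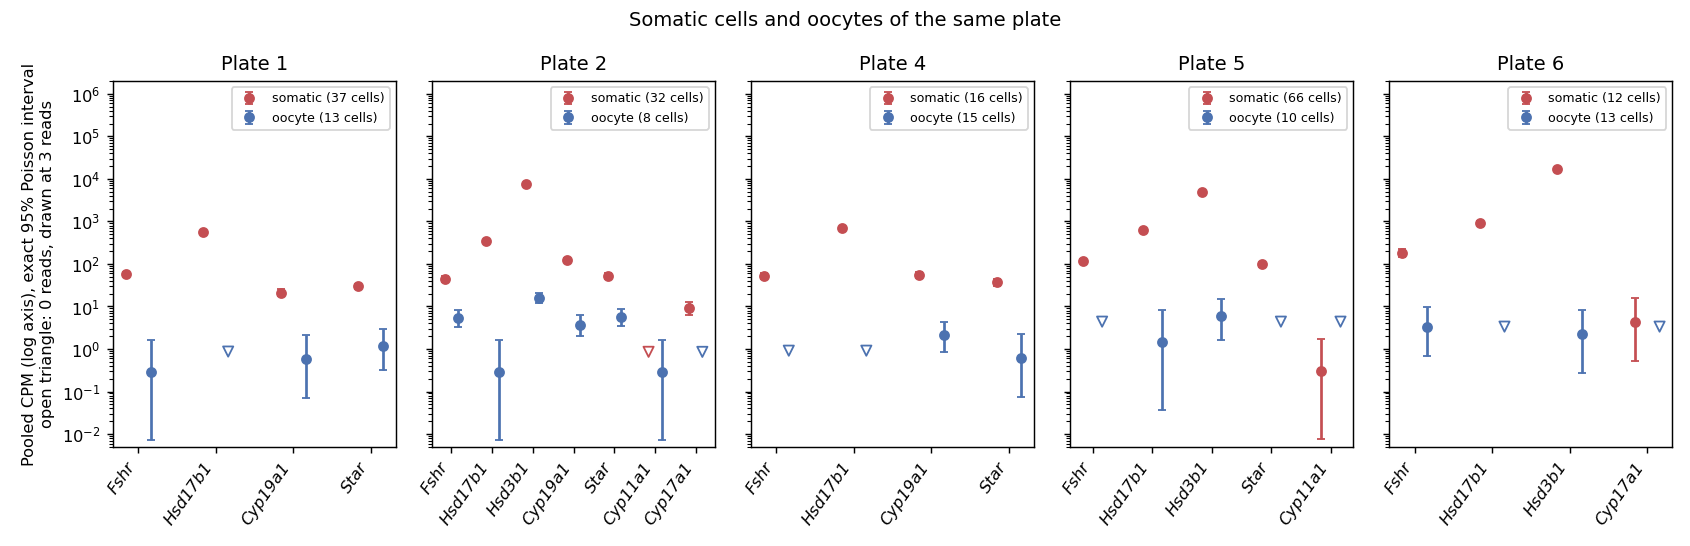
Pooled level of each listed gene with reads (vertical axis, CPM, logarithmic) in somatic cells and oocytes of 5 plates, with exact 95% Poisson intervals and open triangles at 3 reads where a group has none. Somatic cells stand above oocytes for each gene other than Cyp11a1, with Fshr on plate 2 at 44.1 CPM in somatic cells and 5.43 CPM in oocytes.

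The members were then read in the same somatic cells. Of the Fshr cells, 14 of 15 on plate 5, 6 of 6 on plate 6, 5 of 5 on plate 4, 5 of 6 on plate 3, 6 of 8 on plate 2 and 4 of 5 on plate 1 also had Hsd17b1. Over all cells of these plates Hsd17b1 was in 47 of 66, 12 of 12, 15 of 16, 16 of 22, 18 of 32 and 17 of 37. Every Fshr cell of the plates that list Hsd3b1 had its reads (15 of 15, 6 of 6 and 8 of 8 on plates 5, 6 and 2), where 98 of 110 cells had them. Fshr cells without Hsd17b1 were thus found on 4 plates, and as 89.1% of all cells had Hsd3b1, its reads in every Fshr cell lay near that share. Fshr and Cyp19a1 met in 3 cells of plate 2 (8 with Fshr, 9 with Cyp19a1), 2 of plate 4 (5 and 5) and 1 of plate 1 (5 and 1). Within secondary cells of plate 5, Hsd17b1 stood at 1006 CPM in the 10 Fshr cells and 959 CPM in the other 16, and Hsd3b1 at 5845 and 9433 CPM. In primary cells of plate 5, Hsd3b1 stood at 3758 CPM in the 5 Fshr cells and 8591 CPM in the other 14. In primary cells of plate 2, it stood at 15784 CPM in the 8 Fshr cells and 5107 CPM in the other 24. Those 24 include the 5 cells with reads of at least 3 stroma markers. In secondary cells of plate 6, it stood at 20979 CPM in the 6 Fshr cells and 11312 CPM in the other 5. Plates 2 and 6 were thus the other way round from plate 5.

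**Figure D4:**
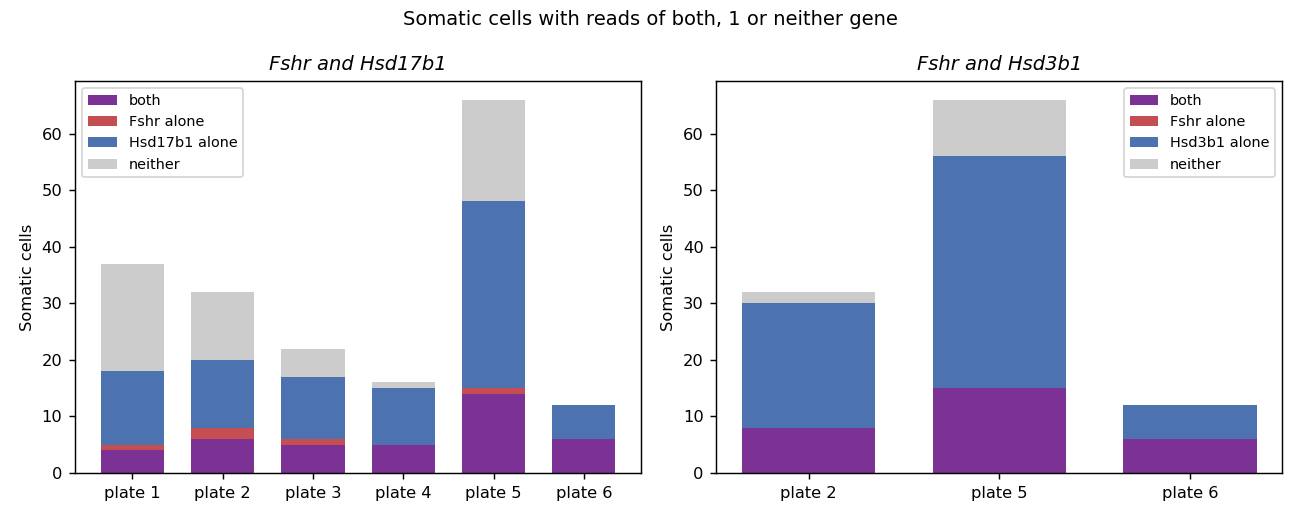
Number of somatic cells (vertical axis) with reads of both genes, of 1 gene or of neither, for Fshr with Hsd17b1 on 6 plates (left) and Fshr with Hsd3b1 on the 3 plates that list it (right). No Fshr cell lacks Hsd3b1, and 14 of the 15 Fshr cells of plate 5 hold Hsd17b1.

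Somatic cells of a plate share a plate number and a plate code in the metadata. They differ in depth, and on plates 1, 5 and 6 also in stage, and the stages were pooled. Over these single cells, the Pearson correlation of log2(CPM + 1) between Hsd17b1 and Hsd3b1 was 0.46 on plate 5 (66 cells). It was 0.36 on plate 2 (32 cells) and -0.07 on plate 6 (12 cells). Between Fshr and Hsd17b1 it ran from -0.04 to 0.32 over the 6 plates. The genes most like Hsd17b1 on plate 5, among 2963 with reads in at least 25% of cells, were Inha (0.60), the alpha subunit of inhibin, Amh (0.60), anti-Mullerian hormone of growing granulosa cells, and Rap2b (0.60). On plate 1 they included Atp6v0e2 (0.72) and Acads (0.70), over 37 cells and 3074 genes. On plate 2 they were Immp1l (0.68), Ktn1 (0.59) and Txndc15 (0.59), and on plate 3 they included Emilin2 (0.63) and Fig4 (0.63). Those most like Cyp19a1 on plate 2 were Kifc5b (0.61), Pkmyt1 (0.61) and Fam49b (0.61). Those most like Hsd3b1 were Slc18a2 (0.73), Inha (0.69) and Inhbb (0.63) on plate 5, and Inha (0.89), Amhr2 (0.83), the receptor for anti-Mullerian hormone, and Bex4 (0.81) on plate 2. For Fshr the list was Nipal1 (0.56), Lrrc4 (0.54) and Ppp1r7 (0.51) on plate 5, Aimp2 (0.78), Msh6 (0.71) and Sar1b (0.69) on plate 1, Zfp846 (0.61), Ebp (0.59) and Tbcc (0.57) on plate 2 and Drg2 (0.81), Melk (0.78) and Crat (0.71) on plate 3. In these lists of 3 genes none came back on another plate for Fshr or Hsd17b1, and Inha was on both lists of Hsd3b1. Fshr and log2 total counts correlated at -0.01 on plate 5 and 0.46 on plate 1, Hsd17b1 at 0.08 and 0.57. The part of depth in the lists of plate 1, and that of stage in the lists of plates 1 and 5, was not tested.

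The genes that supply and surround steroid synthesis were read on plate 5. Of 6 listed genes of cholesterol uptake and synthesis, 4 were higher in primary than in primordial cells and none lower (median log2 ratio 2.06, against 0.27 over all genes). Beside this and the other counts of these short lists, 34.1% of all 6148 genes were higher and 27.9% lower. Scarb1, a receptor for high density lipoprotein, stood at 1182 CPM in primary and 266 CPM in primordial cells. Of 5 other enzymes of steroid conversion with a level, 3 were higher (Hsd17b11, Akr1c18 and Hsd11b2), and neither of the 2 electron donors, Fdx1 and Cyb5b, passed the limit. Hsd11b2, which inactivates glucocorticoids, stood at 553 CPM in primary and 173.1 CPM in primordial cells. Akr1c18, which breaks down progesterone, stood at 150.1 CPM in 3 of 19 primary cells and at 0 in primordial cells. Of 5 steroid receptors and chaperones, 1 was higher and 1 lower, the mineralocorticoid receptor Nr3c2 (0 CPM in primary and 75.6 CPM in primordial cells). In secondary cells Nr3c2 stood at 81.8 CPM, with a log2 ratio to primordial cells of 0.11 (-0.30 to 0.53).

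Genes of gonadotropin signalling, downstream of the FSH receptor, lay on both sides of the limit. Of 9 such genes, 1 was higher in primary than in primordial cells (Prkaca, a catalytic subunit of protein kinase A, with reads in 1 primary cell) and 3 were lower (Pde4b, Pde8a and Arrb2), with a median log2 ratio of -0.29. Pde8a, a cyclic AMP phosphodiesterase, stood at 0 CPM in primary and 116.95 CPM in primordial cells. Of 10 transcription factors of steroidogenic genes, Foxl2 (443 and 173.9 CPM in primary and primordial cells) and Usf1 (169.4 and 51.5 CPM) were higher and Nr4a2, Runx2 and Cited4 lower. Nr5a1, steroidogenic factor 1, stood at 565 CPM in primary and 404 CPM in primordial cells (log2 ratio 0.48, 0.30 to 0.67). Of 8 other genes of growing granulosa cells, 6 were higher, among them Amh (2399 and 163.7 CPM) and Inha (18517 and 3787 CPM). Over all lists 17 of 45 genes with a level were higher and 7 lower, beside 34.1% and 27.9% of all genes. With totals over the genes listed on every plate 29 were higher. Such totals shift all genes alike, and the share of all genes was not computed with them, so 29 has no such share beside it.

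In secondary cells of plate 5 the counts over primordial cells were 5 of 6 for cholesterol genes, 4 of 5 for other enzymes, 3 of 6 for steroid receptors and 6 of 8 for growing granulosa cells, with none lower in these lists. The receptors included Esr2 (1479 CPM in secondary and 692 CPM in primordial cells), estrogen receptor beta of granulosa cells, and Pgr (13.9 and 0.780 CPM). Pgr rests on reads in 2 of 26 secondary and 1 of 21 primordial cells. Among signalling genes Adcy3 and Prkaca were higher and Pde4b, Pde8a and Arrb1 lower. Over all lists 23 of 47 genes were higher and 5 lower, beside 35.6% and 22.8% of all genes. Over primary cells 10 of 48 were higher and 8 lower, beside 29.7% and 21.5%. On plate 1, which lists a different set, 21 of 54 genes were higher and 14 lower in primary than in primordial cells, beside 32% and 41.6% of all genes. The genes Hsd11b2, Amh, Inha, Inhbb, Ihh and Dhh were among those higher on both plates, while Hsd17b11 was higher on plate 5 and lower on plate 1. In secondary over primordial cells, Foxl2 was higher on plate 5 and lower on plate 1. The share of all genes higher on both plates was not computed.

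**Figure D5:**
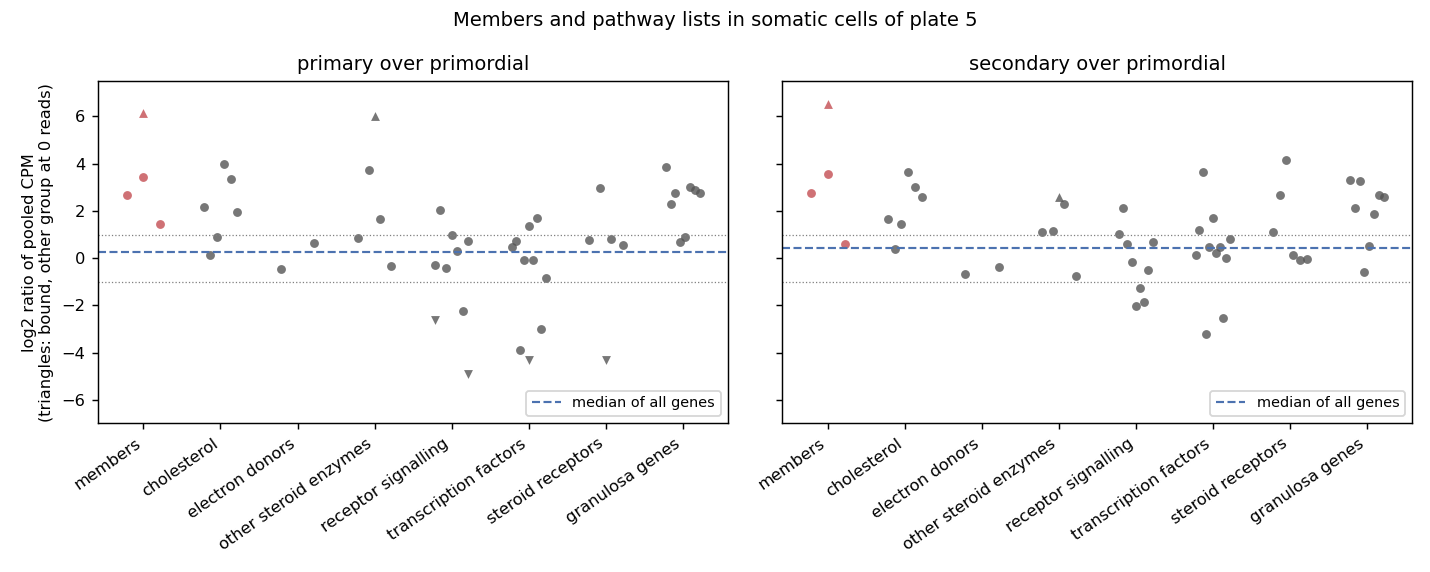
Log2 ratio of pooled levels (vertical axis) of the members and of each gene of the pathway lists in primary over primordial (left) and secondary over primordial (right) somatic cells of plate 5, with triangles for bounds, dotted lines at a 2-fold difference and a dashed line at the median of all genes (0.27 and 0.45). The genes of growing granulosa cells have medians of 2.77 and 2.36, and those of receptor signalling lie on both sides of the line.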

How the data were processed

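Estimated counts of each gene in each cell were deposited as the authors made them, without normalization. The authors aligned SMART-Seq2 reads to GRCm38, used Seurat v4 and removed cells with under 500 genes. The aligner and counter are not given in the sources used here. The deposited metadata give the plate number, a plate code, the batch, the stage and the fraction of reads on rRNA. The medians of this fraction were 24.3% in somatic cells and 10.1% in oocytes. Of 25149 entries, 27 carry dates in place of names and were left out (0.0743% of counts), and 17.2% of counts above 0 are not whole. No pair of cells was identical.

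Counts and totals over all named genes a plate lists were summed over cells of a stage and compared as log2 ratios, with intervals from the binomial split of the counts at 95%. Groups needed 5 cells, and a group without reads was set at 3 counts. Totals on each plate rest on its own list, of 15672 to 18533 genes. The 7 members and all gene lists were chosen with earlier results of these data known. Named genes are the members, the lists and the 3 genes most correlated with a member on plates of at least 20 somatic cells, and which genes of a list are printed was decided with the values known. Alternatives were factors by TMM in edgeR 4.0.16 or by median of ratios in DESeq2 1.42.0, totals over 13266 genes listed on every plate, means of single cells, other limits, thinned cells and cells left out. Leaving out cells with stroma markers and summing the Hsd3b family were added after the data were seen. The calculation was tested on simulated counts that vary by counting error only, so that test does not cover the spread between cells. Python 3.11.15 (numpy 2.4.6, pandas 2.3.3, scipy 1.17.1, matplotlib 3.10.9) and R 4.3.3 were used. Some genes of the lists are not reported here.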

Additional observations from a re-analysis of the deposited data

Results flagged for a closer look

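Of 18 groups of 4 to 10 cells with any spread, 10 held a cell far from the others by Dixon's criterion at 95%. Chance meets it in about 1 of 20 groups of evenly varying values, which does not hold for counts with many zeros. In 6 of the 10 a single cell had reads, so that the criterion was met by construction. In somatic cells of plate 1 these were the primary cells with 276 CPM of Cyp19a1 (all reads of the plate) and with 132.6 CPM of Star (48 reads, the cell given as secondary in the metadata), while the other 4 of 5 cells were at 0 in both cases. Among transitioning cells of plate 1 they were the cell with 2267 CPM of Hsd17b1, next to 679 CPM, and that with 1260.0 CPM of Star, next to 36.1 CPM.

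In oocytes the highest cells rested on few reads. They held 1.25 CPM of Fshr (1 read, primary, plate 1), 14.3 CPM of Fshr (2 reads, primary, plate 6), 1.83 CPM of Hsd17b1 (1 read, primordial, plate 2) and 16.6 CPM of Hsd17b1 (1 read, secondary, plate 5). On plate 2, primordial oocyte 9 held 85.7 CPM of Hsd3b1 (42.98 counts, next to 7.48 CPM) and 14.0 CPM of Cyp19a1 (7 reads, next to 5.50 CPM). That oocyte was the highest for both genes, and a somatic origin of its reads was not tested.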

How the results depend on the processing

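No paired analysis was possible because replicate numbers only name cells and no test was run. No log2 ratio of a member changed sign in a way that reversed a difference of 2-fold. TMM and median-of-ratios factors moved all ratios by -0.49 and -0.49 for primary over primordial cells of plate 5, by -0.37 and -0.35 for secondary over primordial cells, by -1.19 and -1.37 for somatic cells over oocytes of plate 2, and by 0.51 and 0.49 for oocytes of plate 1. With cells with another stage in the metadata left out the Star log2 ratio, primary over primordial somatic, plate 1, was at most -3.77, since no read was left, against -0.23. Of 210 values for counts of members, all but 9 lay within 1.5 times the reported count. The values themselves were less steady: 28.7% of the alternative values for log2 ratios of members, 64.4% for pooled levels and 22.5% for shares of cells moved past the counting interval (past 2-fold for bounds). Leaving out the cell with the most reads moved 46 of 51 pooled levels and 21 of 45 log2 ratios. With means of single cells, members higher in transitioning over primordial cells of plate 1 were 2 (against 1), members lower in primary over primordial cells 1 (against 0), lower in primary over transitioning cells 1 (against 0) and higher in primary over primordial oocytes 1 (against 0). Without the cells of conflicting stage, members lower on plate 1 were 1 in primary over primordial cells, 1 in primary over transitioning cells and 1 (against 2) in secondary over primary cells. With totals over genes of every plate, 2 members (against 1) were higher in secondary over transitioning cells, and without stroma-marked cells 1 (against 0) was lower in secondary over primary cells of plate 5.

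Of 210 counts of pathway genes 28 moved. On plate 1, genes lower in primary over transitioning cells (10) were 6 with common totals and 6 at 3-fold. In secondary over primary cells, 7 higher became 11 without conflicting cells and 4 at 3-fold, and 11 lower became 6 at 3-fold. In primary over primordial oocytes, 7 higher became 4 with common totals and 4 at 3-fold, and 13 lower became 7 with TMM or median-of-ratios factors, 20 with common totals and 7 at 3-fold. On plate 5, 17 higher in primary over primordial cells became 29 with common totals, and 8 lower in secondary over primary cells became 5 with means of single cells and 3 at 3-fold. Genes lower in somatic cells than in oocytes were 7 on plate 1 with common totals, single-cell means or no minimum (against 4). On plate 2 they were 4 with TMM or median-of-ratios factors, 2 with single-cell means, 2 without stroma-marked cells and 3 with no minimum (against 1). They were 1 on plate 4 with TMM, median-of-ratios or common totals and 2 with no minimum (against 0), 5 on plate 5 with median-of-ratios factors (against 3), and 1 on plate 6 at 3-fold (against 2). Depth limits the shares: shallow cells with few molecules can lack a read of an expressed gene.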

Other observations

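Relatives of Hsd3b1 and other enzymes of steroid handling gave further values. On plate 4, which does not list Hsd3b1, Hsd3b3 stood at 3.57 CPM in transitioning somatic cells (reads in 6 of 16) and at 1036 CPM in transitioning oocytes (14 of 15 cells, with counts that are not whole in 13), so this relative lay on the oocyte side. Hsd3b2 on plate 1 stood in somatic cells at 171.7 CPM (primordial), 151.2 CPM (transitioning), 45.2 CPM (primary) and 50.3 CPM (secondary), with almost every count above 0 not whole. It shared 10.96% of its 50-base windows with Hsd3b3, so counts of these relatives may be split among them. Hsd3b6 stood at no more than 5.75 CPM in somatic cells of any stage on plate 5.

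Akr1cl, an aldo-keto reductase, was read in all somatic cells of plates 2 and 4 (32 of 32 and 16 of 16 cells, 13083 and 14022 CPM), and on plate 1 in 18 of 19 primordial cells (4760 CPM) and all 8 transitioning, 5 primary and 5 secondary cells. Soat1, which stores cholesterol as esters, stood on plate 4 at 17303.5 CPM in somatic cells (16 of 16) and 596 CPM in oocytes (15 of 15). The estrogen receptor Esr2 stood there at 2114 CPM in somatic cells and 5.79 CPM in oocytes, and Nr5a1 at 850 CPM and 3.05 CPM.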
